A study of Mus musculus with 12 samples.

Results

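Photoreceptor axoneme and connecting cilium genes were followed in rod photoreceptors, the sensory neurons of dim-light vision, after the protein kinase CK2 had been targeted. The 9 genes, Rp1, Rp1l1, Mak, Fam161a, Rpgr, Rpgrip1, Spata7, Cep290 and Cc2d2a, were chosen by name for the place of their products in the photoreceptor cilium. No rule on their values was used, but earlier results of these data were known when they were chosen. They are 9 of the 52962 genes of the deposited gene table. The outer segment of a rod is a modified primary cilium. A basal body anchors it, the connecting cilium (the transition zone of other cilia) forms the narrow bridge from the cell body and gates protein traffic, and a microtubule axoneme runs on from it along the outer segment disks. Mouse rods build this structure in the first weeks after birth, and loss of any of several of these proteins causes retinal degeneration in humans or mice.

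The series asked how CK2 modulates transcription that depends on NRL, the factor that specifies the rod fate. Mouse retinas were electroporated, which carries plasmid DNA into cells with an electric pulse, and GFP-positive rods were picked by micromanipulator at postnatal day 8, with 50 to 100 cells in a library. The 12 libraries, made with a PCR-amplified total RNA kit, form 4 groups of 3: shRNA mCsnk2a1, a short hairpin RNA (shRNA) aimed at Csnk2a1 of the mouse, the alpha catalytic subunit of CK2; shRNA Control; pcDNA4c mCsnk2a1, mouse Csnk2a1 in the expression vector pcDNA4c; and pcDNA4c Control. The labels give 3 independent RNA samples for a treatment without saying whether animals were separate, so any p-value speaks only of the spread among these samples. All groups share the electroporation, the GFP selection and the day.

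Summed estimated counts were 2840426 to 3567121 in shRNA mCsnk2a1, 1608926 to 1856775 in shRNA Control, 2296056 to 3551328 in pcDNA4c mCsnk2a1 and 1692419 to 2017623 in pcDNA4c Control, so the Csnk2a1 libraries were the deeper ones in both arms. Csnk2a1 itself had 12.0, 22.2 and 36.0 counts-per-million (CPM) units after TMM scaling in shRNA mCsnk2a1, against 66.9, 57.2 and 8.51 CPM in shRNA Control. It had 49.9, 144.7 and 121.9 CPM in pcDNA4c mCsnk2a1, against 86.6, 25.0 and 28.3 CPM in pcDNA4c Control. The groups overlapped in both arms: the third library labelled shRNA Control lay below all 3 shRNA mCsnk2a1 libraries, and the first library labelled pcDNA4c Control lay above 1 pcDNA4c mCsnk2a1 library. All 8 rod markers had counts in every group, and their summed level was 10650 to 12247 CPM in shRNA mCsnk2a1, 4871 to 7007 CPM in shRNA Control, 4659.6 to 10290 CPM in pcDNA4c mCsnk2a1 and 4921 to 6487 CPM in pcDNA4c Control. Markers of macrophages and microglia set the pcDNA4c Control libraries apart. All 9 had a count there and summed to 2544 to 3002 CPM, against 1.78 to 37.9 CPM in shRNA mCsnk2a1, 58.9 to 65.8 CPM in shRNA Control and 35.9 to 74.9 CPM in pcDNA4c mCsnk2a1. Most of the sum in pcDNA4c Control was Spp1, with 1705 to 2172 CPM in its libraries. C1qa and Tyrobp had no count in any library of those 3 groups; of the 9 markers, 4 were at 0 throughout shRNA mCsnk2a1, 3 throughout shRNA Control and 6 throughout pcDNA4c mCsnk2a1. The 6 Müller glia markers summed to 777 to 1195 CPM in shRNA mCsnk2a1, 306 to 504 CPM in shRNA Control, 304 to 538 CPM in pcDNA4c mCsnk2a1 and 1098 to 1352 CPM in pcDNA4c Control. In such bulk libraries, fewer cells of a type and less RNA per cell cannot be told apart.

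Upstream sequence was read for 7 of the 9 genes, which matched 10 windows of 250 bases before a RefSeq start (GRCm38.p6); Rp1 and Rp1l1 had no match. It is shown for the genes whose values the results turn on, because rod genes are commonly bound by the homeodomain factor CRX, whose core is TAATCC, and by NRL, whose core is TGCTGA. Both strands were searched, capitals mark a match (GGATTA and TCAGCA are matches on the other strand), and no matches overlapped. Of 32851 such windows in the RefSeq table, 6.25% held the CRX core and 16.1% the NRL core, and 2 of the 10 windows of these genes held each. Mak had the CRX core 218 bases before a start inside the gene (chr13:41070470-41070715, minus strand, intronic except for the first exon of transcript Mak-206 just past its end). The other Mak window, directly upstream of the gene (chr13:41079707-41079956, minus strand), held neither core and is not printed. Cc2d2a had the NRL core at 182 and 124 bases before its start (chr5:43662129-43662345, plus strand, upstream of exon 1 of Cc2d2a-201). Cep290 held neither core in its window (chr10:100487332-100487557, plus strand, upstream of exon 1 of Cep290-210). For Rpgrip1, whose window runs into the first exon of Rpgrip1-202, only the 30 bases around the NRL core (113 bases before the start, chr14:52110778-52110807, plus strand) and around the CRX core (28 bases before the start, chr14:52110863-52110892, plus strand) are given. Both cores precede the RefSeq start but lie inside the gene as annotated, which begins at chr14:52110704. These are matches of letters, and binding was not measured.
Mak: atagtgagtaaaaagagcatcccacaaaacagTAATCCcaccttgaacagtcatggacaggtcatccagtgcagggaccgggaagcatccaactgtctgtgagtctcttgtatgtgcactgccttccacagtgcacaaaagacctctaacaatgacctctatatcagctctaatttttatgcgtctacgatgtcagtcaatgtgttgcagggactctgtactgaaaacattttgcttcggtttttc
Cc2d2a: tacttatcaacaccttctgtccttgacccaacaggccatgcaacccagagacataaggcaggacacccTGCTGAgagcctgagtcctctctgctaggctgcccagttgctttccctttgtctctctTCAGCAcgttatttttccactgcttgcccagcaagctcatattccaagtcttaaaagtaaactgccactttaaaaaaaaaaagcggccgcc
Cep290: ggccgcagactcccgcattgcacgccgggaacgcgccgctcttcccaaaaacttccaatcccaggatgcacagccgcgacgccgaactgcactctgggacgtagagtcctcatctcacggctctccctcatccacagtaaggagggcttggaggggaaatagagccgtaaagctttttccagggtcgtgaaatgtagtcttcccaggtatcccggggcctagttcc
Rpgrip1, NRL core: gtttctccaagtTCAGCAcgcgatgaggga
Rpgrip1, CRX core: gctaaaaggcctGGATTAgtgtctcctcta

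Compared per length, in transcripts-per-million (TPM) units summed over the transcripts of a gene, Rp1 and Rpgrip1 were the most abundant of the 9. Rp1 averaged 148 ± 49.1 TPM and Rpgrip1 142 ± 62.5 TPM (SD, n = 12 libraries), ranks 316 and 328 of 51942 genes. Of the Rpgrip1 TPM, 25.8% ± 11.5 was in protein-coding transcripts, against 99.2% ± 0.87 of the Rp1 TPM. The coding transcripts of Rpgrip1 had group means of 24.6 to 40.6 TPM, so its second place held only with its other forms counted. Cep290 averaged 43.2 ± 15.99 TPM, Fam161a 38.8 ± 12.7 TPM, Mak 33.2 ± 17.7 TPM and Rp1l1 28.98 ± 12.3 TPM. Rpgr followed with 19.6 ± 7.38 TPM, Cc2d2a with 10.1 ± 5.01 TPM and Spata7 with 7.49 ± 4.89 TPM. Neighbours in this order often changed places. Rp1 was above Rpgrip1 in 6 of 12 libraries, Cep290 above Fam161a in 7, Mak above Rp1l1 in 7 and Cc2d2a above Spata7 in 6. Rpgr was above Cc2d2a in all 12 and Rpgrip1 above Cep290 in 11. The value of Fam161a covers 7 of the 8 transcripts the deposited table lists, so its level is a lower limit.

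**Figure D1:**
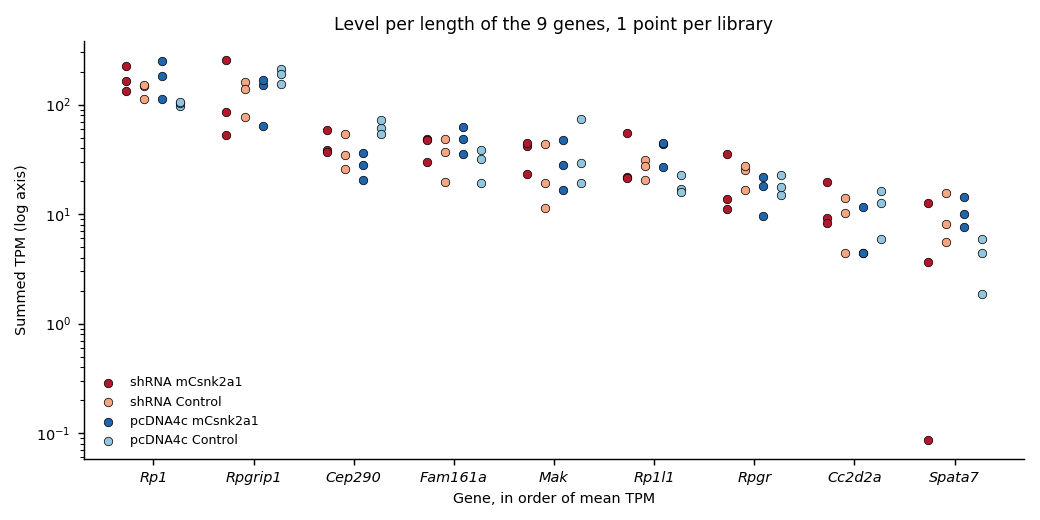
Summed TPM of each gene on a log axis, 1 point per library, coloured by group, with genes in the order of their mean. Rp1 and Rpgrip1 lie highest with means of 148 and 142 TPM, and Spata7 lies lowest with 1 shRNA mCsnk2a1 library at 0.087 TPM.

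The axoneme genes come first. Rp1 (ENSMUSG00000025900, chr1:3999557-4409241, minus strand) encodes a doublecortin-domain protein that binds axonemal microtubules and is needed for the ordered stacking of disks. It had 1973, 3106 and 2333 CPM in shRNA mCsnk2a1, against 1592, 1586 and 1268 CPM in shRNA Control. It had 1409.7, 2369 and 3213 CPM in pcDNA4c mCsnk2a1, against 1624, 1738 and 1662 CPM in pcDNA4c Control. In CPM, all 3 shRNA mCsnk2a1 libraries lay above the 3 of shRNA Control. The pcDNA4c groups overlapped in CPM because 1 library with the Csnk2a1 vector was the lowest of its 6. In TPM both readings turned. The shRNA groups overlapped, at 131.8 to 225.3 TPM in shRNA mCsnk2a1 and 112.1 to 149.8 TPM in shRNA Control. The pcDNA4c groups did not, at 113.2 to 248.1 TPM in pcDNA4c mCsnk2a1 and 96.8 to 105.8 TPM in pcDNA4c Control. Rp1l1 (ENSMUSG00000046049, chr14:63992506-64035025, plus strand) encodes the paralog of RP1, found in the same axoneme. It had 276, 638 and 256 CPM in shRNA mCsnk2a1, against 284, 248 and 197 CPM in shRNA Control, and 285, 480.3 and 486 CPM in pcDNA4c mCsnk2a1, against 320.3, 242 and 210.5 CPM in pcDNA4c Control. A lone shRNA mCsnk2a1 library stood out, and the groups overlapped in both arms in CPM. The TPM level of Rp1 divided by that of Rp1l1 had group means of 5.96 ± 1.79 in shRNA mCsnk2a1, 5.20 ± 0.39 in shRNA Control, 4.65 ± 0.82 in pcDNA4c mCsnk2a1 and 5.68 ± 1.24 in pcDNA4c Control (SD, n = 3 each), whose ranges overlapped within each arm.

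Mak (ENSMUSG00000021363, chr13:41025008-41079706, minus strand) encodes a serine/threonine kinase that restrains the length of the photoreceptor axoneme in mice. It had 225, 220.0 and 119 CPM in shRNA mCsnk2a1, against 74.7, 167 and 46.0 CPM in shRNA Control. It had 125, 78.3 and 223 CPM in pcDNA4c mCsnk2a1, against 117, 444 and 165 CPM in pcDNA4c Control. The groups overlapped in both arms, and the second pcDNA4c Control library was the highest of the 12. Fam161a (ENSMUSG00000049811, chr11:23007531-23030788, plus strand) encodes a microtubule-binding protein of the inner scaffold that holds the microtubule doublets of the connecting cilium together. It had 192, 173 and 113 CPM in shRNA mCsnk2a1, against 105, 56.0 and 145 CPM in shRNA Control. It had 118, 169 and 214 CPM in pcDNA4c mCsnk2a1, against 171, 143 and 102 CPM in pcDNA4c Control, and the groups overlapped in both arms.

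Rpgr, Rpgrip1 and Spata7 act together in the connecting cilium: RPGRIP1 anchors RPGR, a guanine nucleotide exchange factor-like protein, and SPATA7 is needed for both to assemble there in mice. Rpgr (ENSMUSG00000031174, chrX:10073621-10216920, minus strand) had 102.5, 242 and 79.2 CPM in shRNA mCsnk2a1, against 135, 143 and 93.0 CPM in shRNA Control. It had 59.5, 142 and 117 CPM in pcDNA4c mCsnk2a1, against 123, 147 and 177 CPM in pcDNA4c Control. The groups overlapped in both arms. Rpgrip1 (ENSMUSG00000057132, chr14:52110704-52163546, plus strand) had 319, 1425 and 485 CPM in shRNA mCsnk2a1, against 698, 326 and 634 CPM in shRNA Control. It had 323, 795 and 874 CPM in pcDNA4c mCsnk2a1, against 1429, 1029 and 1199.9 CPM in pcDNA4c Control. The shRNA groups overlapped, with the highest and the lowest of the 6 both in shRNA mCsnk2a1, and the 3 pcDNA4c mCsnk2a1 libraries lay below all 3 of pcDNA4c Control. Spata7 (ENSMUSG00000021007, chr12:98628157-98669815, plus strand) was the least abundant, with 1 to 147 rounded counts in a library. It had 0.38, 13.5 and 48.1 CPM in shRNA mCsnk2a1, against 44.6, 23.2 and 17.0 CPM in shRNA Control, and 25.4, 35.1 and 49.3 CPM in pcDNA4c mCsnk2a1, against 26.1, 19.5 and 7.76 CPM in pcDNA4c Control. Its groups overlapped in both arms in CPM.

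Cep290 and Cc2d2a encode scaffolds of the transition zone that help link its microtubules to the ciliary membrane and gate what enters. Cep290 (ENSMUSG00000019971, chr10:100487558-100574840, plus strand) had 755, 453 and 451 CPM in shRNA mCsnk2a1, against 496, 319.7 and 253 CPM in shRNA Control. It had 222, 401 and 312 CPM in pcDNA4c mCsnk2a1, against 883, 1033 and 736 CPM in pcDNA4c Control. The shRNA groups overlapped, the 3 pcDNA4c mCsnk2a1 libraries lay below all 3 of pcDNA4c Control, and 2 of the 3 pcDNA4c Control libraries were above every library of the other groups. Cc2d2a (ENSMUSG00000039765, chr5:43662346-43740972, plus strand) had 83.0, 164 and 70.2 CPM in shRNA mCsnk2a1, against 91.8, 28.0 and 69.8 CPM in shRNA Control. It had 33.2, 34.5 and 90.3 CPM in pcDNA4c mCsnk2a1, against 126, 59.5 and 154 CPM in pcDNA4c Control, and its groups overlapped in both arms.

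**Figure D2:**
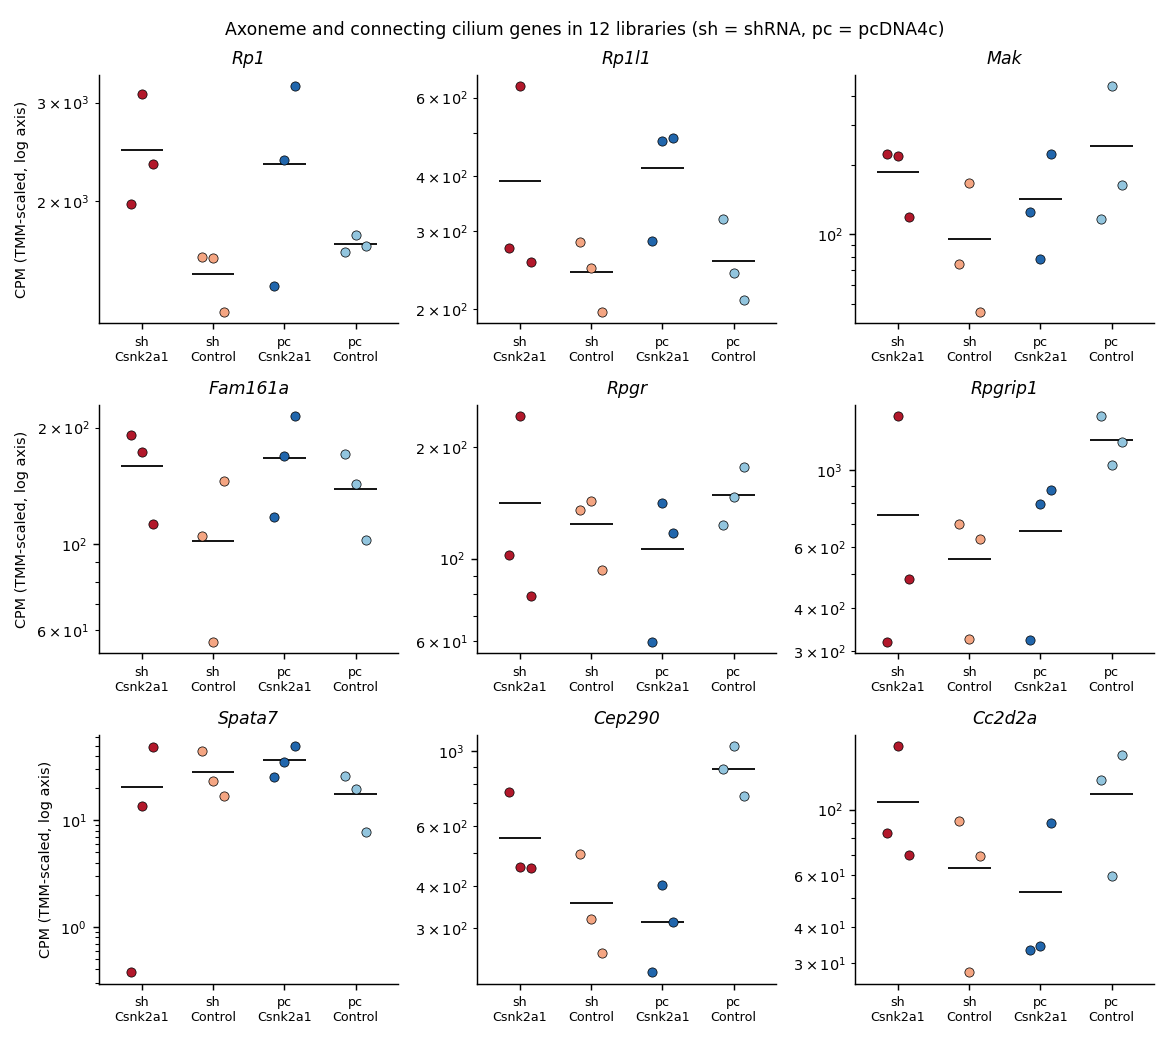
CPM of each gene on a log axis in the 12 libraries, 1 point per library and a line at the group mean, with the Csnk2a1 group left of its control. Rp1 in shRNA mCsnk2a1 lies above shRNA Control, and Cep290 and Rpgrip1 in pcDNA4c mCsnk2a1 lie below pcDNA4c Control; the other groups of an arm overlap.

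Between shRNA mCsnk2a1 and shRNA Control, no axoneme or connecting cilium gene passed edgeR's quasi-likelihood test at a Benjamini-Hochberg adjusted p under 0.05, nor did DESeq2 or limma voom call any. The same test called 0% of the 20267 genes tested, with 1688 genes at an unadjusted p under 0.05. DESeq2 called 183 genes and limma voom 2. Rp1 had the only unadjusted p under 0.05 of the 9, beside 8.33% of all tested genes. Its mean was 2471 ± 579 CPM in shRNA mCsnk2a1 and 1482 ± 185 CPM in shRNA Control (SD, n = 3 each), with 0.74 as the log2 difference (SE 0.28, edgeR adjusted p = 0.598). In CPM it was the 1 gene whose groups did not overlap with the higher values in shRNA mCsnk2a1, beside 5.61% of all tested genes. None of the 9 was below without overlap, beside 6.68%. The exact two-sided permutation test of 3 against 3 libraries gave Rp1 p = 0.1 in log2 CPM, the smallest this design allows. In TPM the groups of Rp1 overlapped.

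The fitted difference had a positive sign for 8 of the 9, from 0.19 for Rpgr to 0.97 for Mak, and was negative for Spata7 (-0.45, SE 1.25). The median over the 9 was 0.65, against -0.12 over all tested genes, of which 48.9% were higher in shRNA mCsnk2a1. The median was 0.30 without the second shRNA Control library, 0.41 without the third and 0.43 without the second shRNA mCsnk2a1 library. The count of 8 was 6 with TPM, 7 with scaling by library size alone, 9 without the first shRNA mCsnk2a1 library or without the first shRNA Control library, and 6 without the second shRNA mCsnk2a1 library. Without that second library Rpgr had -0.45 and Rpgrip1 -0.46, so their sign rested on it. Markers of several cell types moved with the same comparison. The summed CPM of rod and of Müller glia markers in each shRNA mCsnk2a1 library exceeded that in each shRNA Control library. So did that of bipolar markers (600.2 to 1568 CPM in shRNA mCsnk2a1 against 324 to 539 CPM in shRNA Control), of retinal ganglion markers (82.8 to 170.1 CPM against 32.7 to 73.2 CPM in the same groups) and of progenitor and cell cycle markers (174 to 256 CPM against 92.9 to 164 CPM), while macrophage and microglia markers were lower without overlap. The summed counts of the libraries were also higher in shRNA mCsnk2a1. The part of these differences in the values of Rp1 and the other genes was not tested.

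Between pcDNA4c mCsnk2a1 and pcDNA4c Control, again none of the 9 passed edgeR's test, which called 0.0987% of the tested genes. Cep290 came closest, with 312 ± 89.8 CPM in pcDNA4c mCsnk2a1 and 884 ± 149 CPM in pcDNA4c Control (SD, n = 3 each), 0.353 of the control mean. Its log2 difference was -1.50 (SE 0.39, edgeR adjusted p = 0.296), it stayed between -1.70 and -1.15 over 16 alternative settings, and it was the only 1 of the 9 with an unadjusted p under 0.05, beside 8.73% of all tested genes. The call depended on the tool: DESeq2 gave Cep290 an adjusted p of 0.045 and limma voom 0.044, where DESeq2 called 1.25% and limma voom 0.183% of all genes, and over the alternatives its adjusted p ranged from 0.044 to 0.714. Rpgrip1 averaged 664 ± 298 CPM in pcDNA4c mCsnk2a1 and 1219 ± 200.3 CPM in pcDNA4c Control, with -0.88 as the log2 difference (SE 0.48, edgeR adjusted p = 0.612). That difference was -0.50 without the first pcDNA4c mCsnk2a1 library and -0.51 with the deposited CPM. In CPM, Cep290 and Rpgrip1 were the 2 genes that lay lower without overlap, beside 11.8% of all tested genes. None lay higher without overlap, beside 3.73%. In TPM Cep290 stayed lower without overlap, and Rpgrip1 overlapped. Rp1 (113.2 to 248.1 TPM in pcDNA4c mCsnk2a1, 96.8 to 105.8 in pcDNA4c Control) then lay higher without overlap. So did Rp1l1 (27.0 to 44.4 against 15.8 to 22.6 TPM) and Spata7 (7.59 to 14.3 against 1.85 to 5.86 TPM). The share of all genes without overlap in TPM was not computed.

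Of the 9 fitted differences 4 were positive (Rp1 0.48, Rp1l1 0.69, Fam161a 0.26 and Spata7 1.04) and 5 negative (Rpgr -0.49, Mak -0.76, Cc2d2a -1.10, with Rpgrip1 and Cep290). The median of -0.56 was near the -0.53 of all tested genes, and was -0.10 without the second pcDNA4c Control library, -0.14 without the first pcDNA4c mCsnk2a1 library and -0.27 without the second. The sign of Mak rested on the second pcDNA4c Control library, without which its difference was 0.0047. The macrophage and microglia markers moved with this comparison, at 35.9 to 74.9 summed CPM in pcDNA4c mCsnk2a1 against 2544 to 3002 CPM in pcDNA4c Control, as did the Müller glia markers, and their part in the values of Cep290 and Rpgrip1 was not tested. Bipolar markers, at 671 to 788 CPM in pcDNA4c mCsnk2a1 against 127 to 237 CPM in pcDNA4c Control, and cone markers, at 11.4 to 25.4 CPM against 91.4 to 152 CPM in the same groups, did not overlap either. Cep290 had 451 to 755 CPM in shRNA mCsnk2a1, where the macrophage markers summed to 1.78 to 37.9 CPM, and 253 to 496 CPM in shRNA Control, where they summed to 58.9 to 65.8 CPM.

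**Figure D3:**
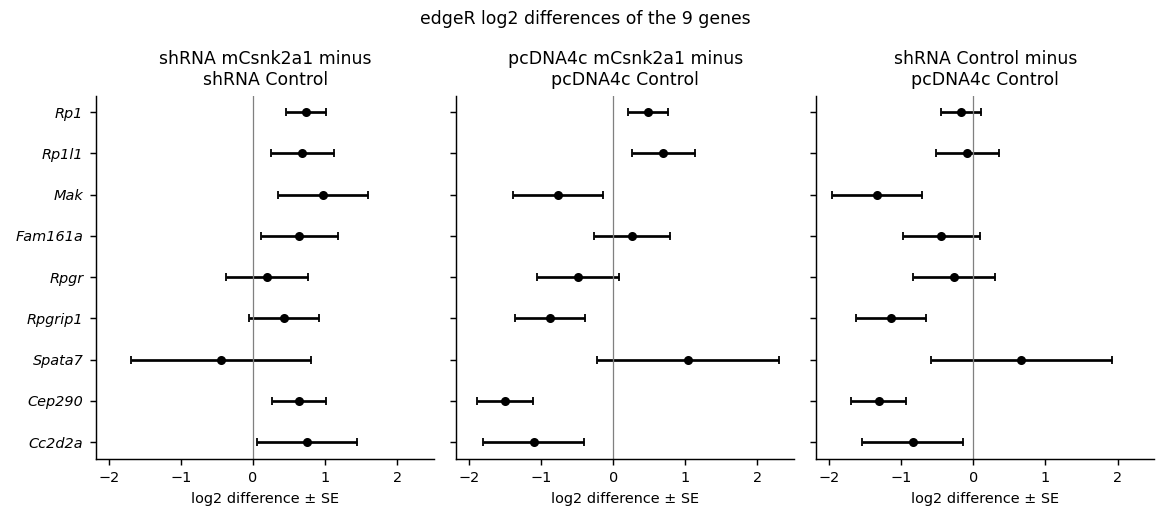
Log2 differences from edgeR with standard errors for each gene in shRNA mCsnk2a1 minus shRNA Control, pcDNA4c mCsnk2a1 minus pcDNA4c Control, and shRNA Control minus pcDNA4c Control. The point of Cep290 is at 0.63 in the first, -1.50 in the second and -1.31 in the third, and no gene passed in any of them.

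The 2 effects were compared directly as the overexpression difference minus the knockdown difference, which uses all 12 libraries. None of the 9 passed edgeR's test, which called 0.0197% of the tested genes, and neither DESeq2 nor limma voom called any. Cep290 had the lowest p of the 9, with a difference of effects of -2.14 (SE 0.54, edgeR adjusted p = 0.374), and was the only 1 with an unadjusted p under 0.05, beside 8.34% of all tested genes. Cc2d2a had -1.85 (SE 0.99, adjusted p = 0.649) and Mak -1.74 (SE 0.88, adjusted p = 0.626), which was -0.97 without the second pcDNA4c Control library. Rp1, for which both single differences were positive, had -0.26 (SE 0.39, adjusted p = 0.949). A difference between the effects was thus not shown for any of the 9.

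The control groups were set against each other as a measure of how far libraries without a Csnk2a1 construct differ; shRNA Control and pcDNA4c Control also serve the comparisons above, so the values are given side by side and not as added evidence. edgeR's test called 0.0691% of genes and none of the 9, nor did DESeq2 or limma voom call any of them. Cep290 averaged 356 ± 126 CPM in shRNA Control and 884 ± 149 CPM in pcDNA4c Control (SD, n = 3 each), with -1.31 as the log2 difference (SE 0.38, edgeR adjusted p = 0.893). Rpgrip1 differed by -1.14 (SE 0.49) and Mak by -1.34 (SE 0.63), and these 3 had unadjusted p under 0.05, beside 4.21% of all tested genes. Without the second pcDNA4c Control library the difference of Mak was -0.56. Of the 9 genes 8 were lower in shRNA Control, with a median of -0.51 against -0.18 over all tested genes, and the median was -0.81 without the third shRNA Control library. The 8 of 9 with positive values in shRNA mCsnk2a1 were measured against the same shRNA Control libraries. In CPM, Cep290, Rpgrip1 and Rp1 were lower in shRNA Control without overlap, beside 8.56% of all tested genes. None of the 9 was higher without overlap, beside 5.13%. In TPM the groups of Rpgrip1 overlapped. Rp1 was then higher in shRNA Control without overlap, at 112.1 to 149.8 TPM against 96.8 to 105.8 TPM in pcDNA4c Control. For Cep290 the difference between the controls (-1.31) was close in size to that in pcDNA4c mCsnk2a1 against the same pcDNA4c Control libraries (-1.50). In TPM the scale of all genes shifted between the control groups by 0.59 on the log2 scale, and with it Rp1 (0.40), Rp1l1 (0.49), Rpgr (0.30) and Fam161a (0.19) were positive where CPM gave negative values.

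The transcript values show how the TPM of a gene was split among its annotated forms. Shares of TPM are not shares of reads, since a short form takes fewer reads for the same TPM. All but 1 of the transcripts listed for the 9 genes were matched to the annotation, the exception being of Fam161a. Of the 72 matched, 68 had TPM above 0 in some library and 6 in all 12. Rp1 was nearly all protein-coding (99.2% ± 0.87 of its TPM, SD, n = 12), split between Rp1-201, of 6869 bases with a coding length of 6285, and Rp1-203, of 4170 bases. Rp1-201 averaged 111 TPM and Rp1-203 36.4 TPM. Fam161a (100% over its matched transcripts) and Mak (95.3% ± 4.25) were also almost all coding. Of Rp1l1 70.8% ± 14.3 was coding, and the rest belonged to Rp1l1-202, a processed transcript of 1730 bases.

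Rpgrip1, Spata7, Cep290 and Cc2d2a had a large share of TPM in transcripts annotated as retained introns. That share averaged 55.3% ± 11.8 for Rpgrip1, with 25.8% ± 11.5 in coding transcripts. It was 45.4% ± 35.6 for Spata7, 38.7% ± 25.8 for Cep290 and 39.1% ± 36.6 for Cc2d2a (SD, n = 12 each). The most abundant Rpgrip1 transcript was Rpgrip1-205, a retained-intron form of 945 bases that averaged 23.0 TPM and was above 0 in 9 libraries. kallisto shares reads among overlapping transcripts by estimation, so the split within a gene is less certain than its total.

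**Figure D4:**
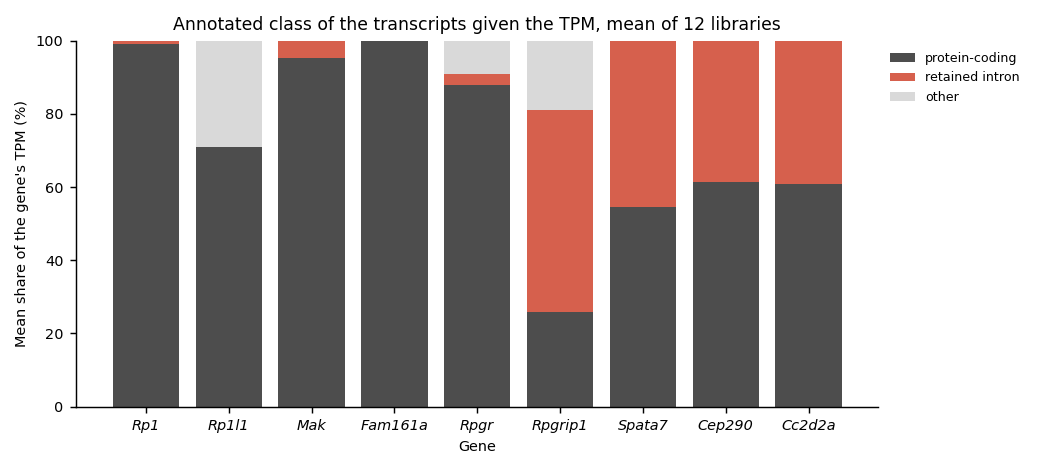
Mean share of TPM over 12 libraries, in percent, in protein-coding, retained-intron and other transcripts of each gene. Rp1 stands at 99.2% coding, and Rpgrip1 at 55.3% retained intron.

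For Cep290 the TPM difference between the pcDNA4c groups sat mainly in retained-intron transcripts, a split examined after its values had been seen and not tested. TPM is a level per length, so a form of 423 bases takes far fewer reads for the same TPM than 1 of 8211 bases. The split of the reads themselves was not computed, and it can differ from that of the TPM. Retained-intron transcripts had 14.4, 16.4 and 3.19 TPM in pcDNA4c mCsnk2a1, against 35.1, 46.7 and 34.7 TPM in pcDNA4c Control, without overlap. Protein-coding transcripts had 6.19, 19.4 and 24.7 TPM in pcDNA4c mCsnk2a1, against 25.9, 24.9 and 19.6 TPM in pcDNA4c Control, and overlapped. In the shRNA arm the retained-intron TPM was 35.2, 4.00 and 3.99 in shRNA mCsnk2a1 and 26.3, 1.73 and 3.77 in shRNA Control, so that 1 library of each group lay above all 3 of pcDNA4c mCsnk2a1. In pcDNA4c Control much of the retained-intron TPM came from Cep290-209, a form of 423 bases. It had 0.0, 15.9 and 0.0 TPM in pcDNA4c mCsnk2a1, against 25.5, 40.8 and 26.9 TPM in pcDNA4c Control. In shRNA Control it had 0.0 TPM in every library, and Cep290-202 had 26.1 TPM in the first. The longest coding form of Cep290, Cep290-210, of 8211 bases, had 0.0, 19.4 and 9.58 TPM in pcDNA4c mCsnk2a1 and 5.71, 24.9 and 17.2 TPM in pcDNA4c Control. Rpgrip1 had retained-intron TPM of 70.2 ± 34.8 in pcDNA4c mCsnk2a1 and 119 ± 26.2 in pcDNA4c Control, with coding TPM of 31.7 ± 20.4 and 31.5 ± 18.9 in the same groups (SD, n = 3 each).

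**Figure D5:**
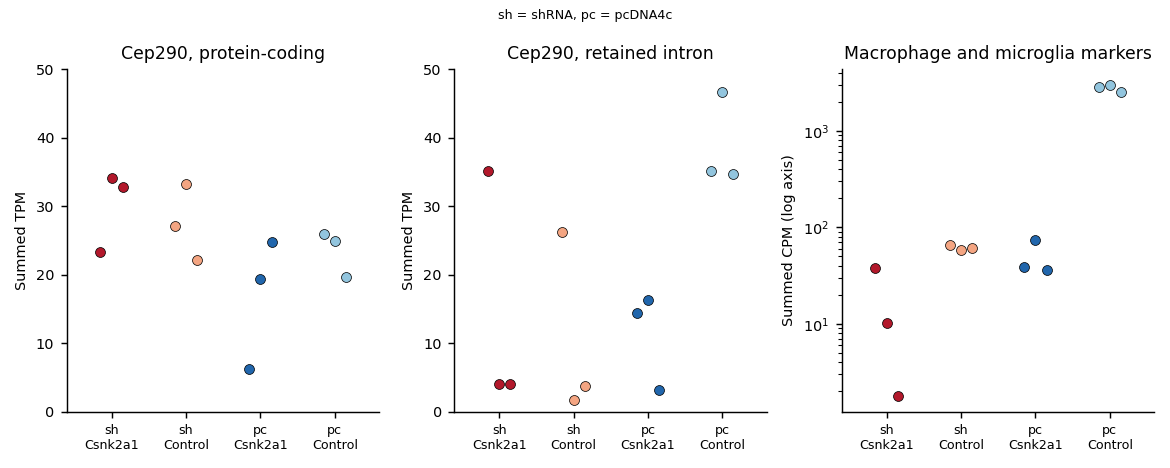
Summed TPM of protein-coding (left) and retained-intron (middle) Cep290 transcripts, and summed CPM of 9 macrophage and microglia markers on a log axis (right), 1 point per library. The pcDNA4c Control libraries lie at 34.7 to 46.7 TPM in the middle panel and at 2544 to 3002 CPM in the right panel.

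The share of the leading transcript of each gene was compared in 27 exact two-sided permutation tests. In 4 of them the groups did not overlap (exact permutation p = 0.1 each, the smallest possible), and the smallest Benjamini-Hochberg adjusted p was 0.675. The share of such cases over all genes was not computed. Rp1-201 made up 77.5% ± 7.83 of Rp1 in shRNA mCsnk2a1 and 71.0% ± 0.38 in shRNA Control (SD, n = 3 each). Its ranges nearly touched, at 71.6% in the lowest shRNA mCsnk2a1 library and 71.4% in the highest shRNA Control library. Cep290-210 made up 60.1% ± 21.6 in shRNA Control and 25.3% ± 13.9 in pcDNA4c Control. The others were Spata7-203, listed at 0 in every shRNA mCsnk2a1 library against 56.0% ± 45.5 in shRNA Control, and Cc2d2a-201, listed at 0 in every pcDNA4c mCsnk2a1 library against 42.8% ± 40.8 in pcDNA4c Control. All Spata7 transcripts together had 0.087 TPM in the first shRNA mCsnk2a1 library.

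Across the 12 libraries, the 36 pairs of these genes had a median Pearson correlation of 0.304 in log2 CPM, and 30 pairs were positive. These are descriptions over libraries that share groups and depth, with no test. By Pearson's r, Rp1 and Rp1l1 stood highest (0.823), followed by Rpgrip1 with Cc2d2a (0.691) and Rpgr with Rpgrip1 (0.671), while Cep290 with Rp1 had 0.028 and with Spata7 -0.384. The order depended on the measure: by Spearman's rho, Rp1 with Rp1l1 had 0.594, below Rpgrip1 with Cc2d2a (0.650), Rpgr with Rpgrip1 (0.636) and Rp1l1 with Fam161a (0.601). Among 11197 genes, the profile most like that of Rp1 was that of Pkd1, which encodes polycystin 1 (r = 0.930, n = 12). Syp, for the synaptic vesicle protein synaptophysin, followed with 0.901, and Prph2, for the disk rim protein peripherin 2, with 0.899. Mir124-2hg, the host gene of a neuronal microRNA, had 0.895 and Ncoa1, a nuclear receptor coactivator, 0.891.

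Other genes of the photoreceptor cilium were followed in 3 lists. Of 20 transition zone genes 19 were tested and none passed edgeR in any comparison. An unadjusted p under 0.05 was held by 2 in knockdown, 1 in overexpression, 2 for the difference of the effects and 1 between the controls, beside 8.33%, 8.73%, 8.34% and 4.21% of all tested genes. Of the 19, 15 were higher and 4 lower in shRNA mCsnk2a1, with a median log2 difference of 0.60, and 10 were higher and 9 lower in pcDNA4c mCsnk2a1, with a median of -0.92. Between the controls, 4 were higher and 15 lower in shRNA Control, which also serves the knockdown comparison, with a median of -0.73. Over all tested genes the medians of these 3 comparisons were -0.12, -0.53 and -0.18. Nek8, for a kinase of the inversin compartment, had the most negative difference in the pcDNA4c arm, with 0.0, 0.0 and 0.34 CPM in pcDNA4c mCsnk2a1 and 15.3, 1.5 and 32.1 CPM in pcDNA4c Control (adjusted p = 0.568), and in the shRNA arm it had 0.0, 50.5 and 91.6 CPM in shRNA mCsnk2a1 and 0.0, 7.74 and 6.24 CPM in shRNA Control. The pcDNA4c groups of Nek8 did not overlap, beside 11.8% of all tested genes that were lower without overlap. DESeq2 called Nek8 for the difference of the effects, the only call that DESeq2 or limma voom made over the 3 lists in any comparison. Tmem17, for a transition zone membrane protein, had 16.5, 6.46 and 0.0 CPM in shRNA mCsnk2a1 and 0.0 CPM in each shRNA Control library. Mks1, for a B9-domain protein, had 6.57 ± 10.6 CPM in shRNA mCsnk2a1 and 12.6 ± 3.65 CPM in shRNA Control. B9d1, for another B9-domain protein, had 22.1 ± 26.2 CPM in pcDNA4c mCsnk2a1 and 3.84 ± 2.95 CPM in pcDNA4c Control (SD, n = 3 each). Most of these genes were scarce and their libraries scattered.

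None of the 21 centriole and basal body genes passed in any comparison. In the same order of comparisons, 3, 1, 2 and 0 had an unadjusted p under 0.05, beside 8.33%, 8.73%, 8.34% and 4.21% of all tested genes. Of the 21, 12 were higher and 9 lower in shRNA mCsnk2a1 (median 0.30), and 10 higher and 11 lower in pcDNA4c mCsnk2a1 (median -0.23). Between the controls, 12 were higher and 9 lower in shRNA Control (median 0.15). Over all tested genes these medians were -0.12, -0.53 and -0.18. Cep78, for a centriole protein whose loss causes cone-rod dystrophy in humans, had 0.0, 0.0 and 3.21 CPM in shRNA mCsnk2a1, against 29.6, 33.9 and 28.4 CPM in shRNA Control. These groups did not overlap, beside 6.68% of all tested genes that were lower without overlap, and the edgeR adjusted p was 0.598. Cep97, which caps centrioles with CP110, had 80.4 ± 57.9 CPM in shRNA mCsnk2a1 and 19.8 ± 14.0 CPM in shRNA Control, and Cep164, of the distal appendages, 169 ± 129 and 73.9 ± 20.1 CPM in the same groups. The groups of Cep97 did not overlap, beside 5.61% of all tested genes that were higher without overlap. Nin, which encodes ninein of the subdistal appendages, had 331, 195 and 312 CPM in pcDNA4c mCsnk2a1, against 126, 172 and 173 CPM in pcDNA4c Control (edgeR adjusted p = 0.795). Its groups did not overlap either, beside 3.73% of all tested genes that were higher without overlap. Sdccag8, for another centrosomal protein, had 36.5 ± 5.75 CPM in pcDNA4c mCsnk2a1 and 17.9 ± 15.996 CPM in pcDNA4c Control, and Poc1a, for a centriole stability protein, 0.10 ± 0.18 and 4.84 ± 5.03 CPM in the same groups. The groups of Poc1a did not overlap, beside 11.8% of all tested genes that were lower without overlap.

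Of 11 further axoneme and periciliary genes none passed. In the same order, 3, 2, 3 and 1 had an unadjusted p under 0.05, beside 8.33%, 8.73%, 8.34% and 4.21% of all tested genes. Of the 11, 5 were higher and 6 lower in shRNA mCsnk2a1 (median 0.35), and 6 higher and 5 lower in pcDNA4c mCsnk2a1 (median -1.07). Between the controls, 4 were higher and 7 lower in shRNA Control (median -0.78). Over all tested genes these medians were -0.12, -0.53 and -0.18. Whrn, for the periciliary scaffold whirlin, had 84.1, 278 and 39.9 CPM in shRNA mCsnk2a1, against 22.3, 60.7 and 13.6 CPM in shRNA Control (adjusted p = 0.598). Agbl5, for an enzyme that removes glutamate branches from tubulin, had 78.6 ± 50.7 CPM in shRNA mCsnk2a1 and 22.3 ± 4.81 CPM in shRNA Control. Its groups did not overlap, beside 5.61% of all tested genes that were higher without overlap. 2610301B20Rik, the older symbol of Cfap418, had 0.0 CPM in every shRNA mCsnk2a1 library, against 1.04, 24.4 and 5.11 CPM in shRNA Control. This too was without overlap, beside 6.68% of all tested genes that were lower without overlap. In the pcDNA4c arm, Whrn had 141 ± 171 CPM in pcDNA4c mCsnk2a1 and 87.3 ± 38.3 CPM in pcDNA4c Control, and Lca5, for lebercilin, 84.9 ± 43.1 and 54.3 ± 29.7 CPM in the same groups. Ttll6, for a tubulin glutamate ligase, had 0.0 CPM in every pcDNA4c mCsnk2a1 library, against 5.90, 0.0 and 8.86 CPM in pcDNA4c Control.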

How the data were processed

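RNA was measured in 12 libraries, 4 groups of 3. Per the submitters' processing notes, the tools were kallisto 0.45.0 and edgeR 3.28 and the build was mm10, without settings. Estimated counts, which need not be whole, fill the deposited table of genes, with no normalization by the authors stated. The deposited transcript table is headed as raw counts, but its columns sum as TPM does, and it was used as TPM made by the authors, summed over GENCODE M21 transcripts of a gene. The authors' other table holds a scaled CPM signal for 11 libraries, per the file headers, and served only as an alternative. Gene counts equalled summed TPM times 1 constant per gene and 1 per library for 98.7% of values (within 1%; 5571 genes), so they are rescaled estimates and not reads.

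Counts were rounded and analysed in edgeR 4.0.16 (R 4.3.3): filterByExpr with a minimum count of 10, TMM scaling, and a single quasi-likelihood fit of all 12 libraries with Benjamini-Hochberg adjustment over 20267 genes; all 9 genes passed the filter. The standard error is the log2 difference divided by the root of F. DESeq2 1.42.0, limma voom (limma 3.58.1), other filters and scalings, TPM, the deposited CPM and each left-out library were alternatives. Counts come from PCR copies without molecular identifiers, and summed depth was 1608926 to 3567121. Named genes were the 9, Csnk2a1, those of each list that passed or had the 2 highest and 1 lowest differences in each arm, and the 5 most correlated with Rp1; 1 gene named by this rule is not reported here. The 9 genes, the lists and the markers were chosen with earlier results of these data known. Same-numbered libraries did not deviate together (correlations of -0.040 to 0.009), so the numbers were not used as pairs. Positions are GRCm38.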

Additional observations from a re-analysis of the deposited data

Results flagged for a closer look

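3 genes were flagged because every shRNA mCsnk2a1 library lay above the mean of shRNA Control while every pcDNA4c mCsnk2a1 library lay below the mean of pcDNA4c Control. The share of all tested genes that meet this rule was not computed, so the 3 cannot be called unusual. In log2 units, the effect in the pcDNA4c arm minus that in the shRNA arm was -2.14 for Cep290 (edgeR adjusted p = 0.374), -1.85 for Cc2d2a (adjusted p = 0.649) and -1.74 for Mak (adjusted p = 0.626). None of these tests of the difference passed. Mak met the rule only through the second pcDNA4c Control library (444 CPM). The third pcDNA4c mCsnk2a1 library (223 CPM) lay above both other pcDNA4c Control libraries (117 and 165 CPM). Without that second control library the difference of effects was -0.97. All 3 genes averaged more CPM in pcDNA4c Control than in shRNA Control, at 356 ± 126 CPM in shRNA Control and 884 ± 149 CPM in pcDNA4c Control for Cep290, 63.2 ± 32.4 and 113 ± 48.5 CPM for Cc2d2a, and 95.8 ± 63.1 and 242 ± 177 CPM for Mak in the same groups (SD, n = 3 each).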

How the results depend on the processing

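Over the 36 combinations of a gene and a comparison, 24 kept the sign of their log2 difference in every alternative. With TPM (limma) the median of the 9 moved to 0.25 for knockdown, 0.14 for the difference of effects and 0.19 for the controls, and signs turned for Rpgr (-0.33) and Rpgrip1 (-0.19) in knockdown, Rp1 (0.43), Rpgr (0.14) and Fam161a (0.40) in the difference of effects, and Rp1 (0.40), Rp1l1 (0.49), Rpgr (0.30) and Fam161a (0.19) between the controls. TPM shifted the scale of all genes by -0.40, 0.36 and 0.59 in knockdown, overexpression and the controls. Whether groups overlapped also turned with TPM for Rp1, Rp1l1, Spata7 and Rpgrip1, as given above. With the deposited CPM the median was -0.17 for overexpression and -0.19 for the difference of effects, where Rp1 had 0.044. Rpgr in knockdown was -0.0047 by library size alone. Rp1l1 between the controls was 0.041 with RLE factors, where the median shift over the 9 genes themselves was 0.12, and 0.041 with DESeq2. Left-out libraries moved knockdown differences from -0.45 to 0.48 (Rpgr), -0.46 to 0.80 (Rpgrip1) and -2.01 to 0.14 (Spata7), that of Mak in overexpression from -1.23 to 0.0047, that of Rp1l1 between the controls from -0.21 to 0.10, and differences of effects from -0.54 to 0.035 (Rp1) and -0.22 to 0.56 (Rp1l1); their medians moved from 0.30 to 0.77 in knockdown, from -0.69 to -0.10 in overexpression, from -0.81 to -0.38 between the controls and from -0.94 to -0.20 for the difference of effects. DESeq2 and limma voom each called 1 of the 9, Cep290, in overexpression. With protein-coding transcripts only, none of the leading shares tested was without overlap, against 4. Spata7 in knockdown and Cc2d2a in overexpression could not be tested this way, since a library had no coding TPM. Causes of these changes were not tested.

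Over all genes, calls differed by over 1.5 times as follows. Knockdown had 0, against 183 with DESeq2, 93 without a filter, 8 with the deposited CPM, 2 with limma voom and 2 with TPM. Overexpression had 20, against 253, 111, 49, 37 and 62 in the same order, and 6 from its 6 libraries alone. The difference of effects had 4, against 208, 137, 20, 1 and 24, and 2 with RLE factors or the stricter filter. The controls had 14, against 69 with DESeq2, 71 without a filter, 27 with the deposited CPM and 57 with TPM. Leaving out 1 library gave 0 to 2, 14 to 35, 2 to 16 and 11 to 15 calls in these comparisons, with 2 for knockdown without shRNA Control 3, 35 for overexpression and 16 for the difference without pcDNA4c mCsnk2a1 1, 9 for the difference without shRNA mCsnk2a1 2, 7 without shRNA Control 1 and 2 without pcDNA4c Control 1. The 6-library fit was not run for the difference, which needs all 12. With the replicate block none of the 9 passed, and 1, 26, 9 and 18 genes did in knockdown, overexpression, their difference and the controls, against 0, 20, 4 and 14. Depth limits Spata7 most, with 1 rounded count in its lowest library.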
